A study of Mus musculus with 18 samples.

Results

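Cd38, Bst1, Nampt, Nmnat1, Parp1 and Sirt1 are genes that make or consume nicotinamide adenine dinucleotide (NAD). They were found in the deposited count table by gene symbol, 6 of 57010 genes, and all 6 passed the filter on low counts that left 15528 genes for testing. RNA was sequenced from CD11b-selected brain cells, labelled microglia and macrophages, of male wild-type mice in 6 groups of 3 libraries that the labels call biological replicates. The labels do not say whether cells of several animals were pooled. The groups were aged mice (18 to 20 months) with a stroke and bexarotene, aged mice with a stroke and vehicle, aged mice given bexarotene, aged mice given vehicle, young mice (2 to 4 months) given bexarotene, and young mice given vehicle. Stroke was a middle cerebral artery occlusion, which blocks a main artery of the brain. Bexarotene activates the retinoid X receptor (RXR), a nuclear receptor, and was injected into the peritoneum at 5 mg/kg, beginning 24 hours after surgery and continuing daily for 2 days. All groups received 3% DMSO as solvent, and all samples are labelled day 3. The labels do not say which surgery the mice without a stroke had. Before the CD11b selection, every cell suspension was passed over Ly6G beads to deplete neutrophils.

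NAD carries electrons in energy metabolism and is also broken down as a substrate by several enzyme families, so cells rebuild it continuously, in mammals mainly from nicotinamide. CD38 is a membrane enzyme that cleaves NAD and is regarded as a major NAD consumer of mammalian tissue, and in mouse macrophages its gene is known as a target of the liver X receptors, which bind DNA as partners of RXR. BST1, also named CD157, is its relative on the membrane of myeloid cells. NAMPT catalyses the rate-limiting step of NAD salvage, NMNAT1 completes NAD synthesis in the nucleus, PARP1 spends NAD to attach ADP-ribose chains at broken DNA, and SIRT1 spends it to remove acetyl groups from proteins.

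Library totals ran from 16206144 to 29359943 counts with a stroke and from 7582511 to 11852638 counts without. Levels are in CPM, the counts of a gene scaled to a common library size over the genes tested (TMM), and 3 counts equalled at most 0.405 CPM in any library. Called genes are those with an adjusted p under 0.05 in edgeR's quasi-likelihood test, with Benjamini-Hochberg adjustment over the 15528 genes. Markers of the labelled cell type were abundant, with 11 microglial genes summing to 21954 to 27745 CPM with a stroke and 47302 to 67414 CPM without. Genes of other cells were present too, and 12 neutrophil genes summed to 439 to 3003 CPM with a stroke and 202 to 1487 CPM without, and 10 monocyte genes summed to 3094 to 5934 CPM with a stroke and 293 to 545 CPM without. Bexarotene raised the cholesterol exporter Abcg1, a liver X receptor target, by 1.28 ± 0.13 after stroke, 2.23 ± 0.14 in aged mice and 2.23 ± 0.14 in young mice (log2 ± SE, n = 3 libraries per group), all called. Abcg1 was 1 of 4 known targets of RXR partners chosen to check the treatment labels, with Abca1, Mylip and Tgm2. All 4 had a higher fitted level with bexarotene in each setting. Called were 3 of the 4 (Abca1, Abcg1 and Tgm2) in aged and in young mice, and only Abcg1 after stroke. Of all genes, 0.258%, 0.509% and 0.058% were called in these settings.

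Because liver X receptors and other RXR partners bind pairs of a 6-base half-site, the RefSeq promoters (build GRCm38.p6, 250 bases before to 50 after the gene start) were searched on both strands for AGGTCA and GGGTCA. Promoters of 5 of the 6 genes were in that collection. The windows that held a half-site are shown to give its place in each promoter, 5′ to 3′ on the strand of the gene, with the half-site in capitals, where TGACCC is GGGTCA read on the other strand.
Cd38 (chr5:43868805-43868834, + strand): aggggcaggctcTGACCCagtcagccctgt
Nampt (chr12:32820172-32820201, + strand): aggcaggcgcccAGGTCAcgcgctggggtg
Sirt1 (chr10:63339065-63339094, - strand): gcggggaggggcGGGTCAcgtgacggggtt
Sirt1 (chr10:63339129-63339158, - strand): cgcccggccacgTGACCCggcgtgttgtgg
In Cd38 the half-site lay 8 bases after the annotated start, inside the transcribed part, whereas those of Nampt and Sirt1 lay before it, at 151 bases in Nampt and at 47 and 111 bases in Sirt1. AGGTCA was present in 16.3% and GGGTCA in 13.7% of the 32851 promoters searched. The direct repeat of either half-site spaced by 4 bases, the arrangement that liver X receptors favour, was in 0.0426% of them and in none of these windows. The promoter windows of Nmnat1 and Parp1 held no half-site. A match describes the letters and not binding.

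Bexarotene changed 1 of the 6 genes, Cd38, which rose in aged mice and in young mice without a stroke, and 0 of the 6 after stroke. Of all genes tested, 0.258% were called in aged mice (0.238% higher), 0.509% in young mice (0.419% higher) and 0.058% after stroke. Cd38 stood at 95.7, 72.5 and 79.1 CPM in aged bexarotene mice, against 18.7, 33.1 and 26.6 CPM in aged vehicle mice. In young bexarotene mice it stood at 141, 98.3 and 129.8 CPM, against 35.0, 56.5 and 50.3 CPM in young vehicle mice. All 3 libraries of each bexarotene group lay above all 3 of its vehicle group, where 11.8% of all genes did not overlap in aged mice and 13.1% in young mice. The difference was 1.66 ± 0.27 in aged mice (log2 ± SE, 95% interval 1.08 to 2.24, adjusted p = 0.0213 by edgeR) and 1.38 ± 0.27 in young mice (0.82 to 1.95, adjusted p = 0.0298 by edgeR). In bulk samples more cells of a type that carries Cd38 and more Cd38 RNA per cell cannot be told apart.

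After stroke the Cd38 level was high with and without the drug. It stood at 90.9, 105 and 189 CPM in aged stroke bexarotene mice, against 125, 145 and 114 CPM in aged stroke vehicle mice, so the bexarotene libraries held both the lowest and the highest value. The difference was 0.00 ± 0.25 (log2, -0.54 to 0.54, adjusted p = 0.999 by edgeR), an interval that ends below the lower bounds of both differences without a stroke. Without the third bexarotene library, the highest of all 18, the difference was -0.39. Set against aged mice without a stroke, the bexarotene difference was smaller by 1.66 ± 0.37 on the log2 scale (interaction -1.66, -2.44 to -0.87, unadjusted p = 4.19e-04), which did not pass over all genes with edgeR (adjusted p = 0.814) and did with DESeq2 (-1.65, adjusted p = 0.0224). edgeR called 0 genes (0%) for this interaction, while limma voom called 0 and DESeq2 called 9. An unadjusted p under 0.05 by edgeR was found for 638 of the 15528 genes, a smaller share than the 0.05 of the threshold itself. Aged and young mice without a stroke differed in the drug's effect on Cd38 by 0.27 ± 0.38 (log2, -0.52 to 1.07, adjusted p = 1 by edgeR). Averaged over the 3 settings, Cd38 was again the 1 gene of the 6 called, against 2.09% of all genes (1.38% higher), and it was higher under bexarotene by 1.02 ± 0.15 (0.69 to 1.34, adjusted p = 0.00151 by edgeR). After stroke DESeq2 and limma voom also called 0 of the 6, and 1, Nmnat1, had an unadjusted p under 0.05.

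**Figure D1:**
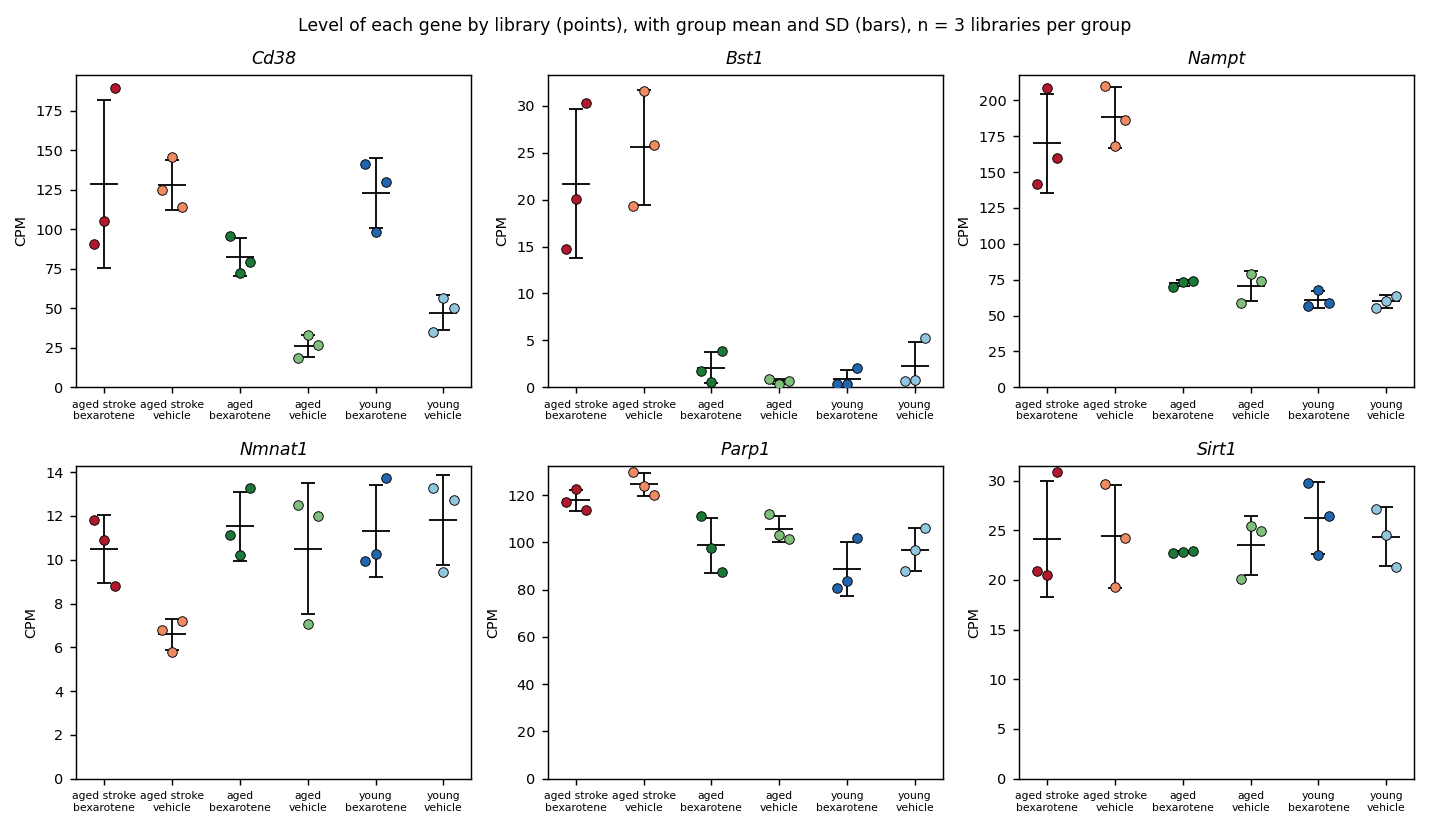
Level of each gene in CPM (vertical axes, from 0) in every library, by group (horizontal axis); points are libraries and bars are the group mean with its SD, 3 libraries per group. Cd38 lies between 72.5 and 141 CPM in bexarotene mice without a stroke and between 18.7 and 56.5 CPM in their vehicle mice. Nampt, Bst1 and, narrowly, Parp1 lie higher in every stroke library than in any other. Stroke and no stroke did not overlap in aged mice for 56.3% of all genes with bexarotene and 56.1% with vehicle.

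**Figure D2:**
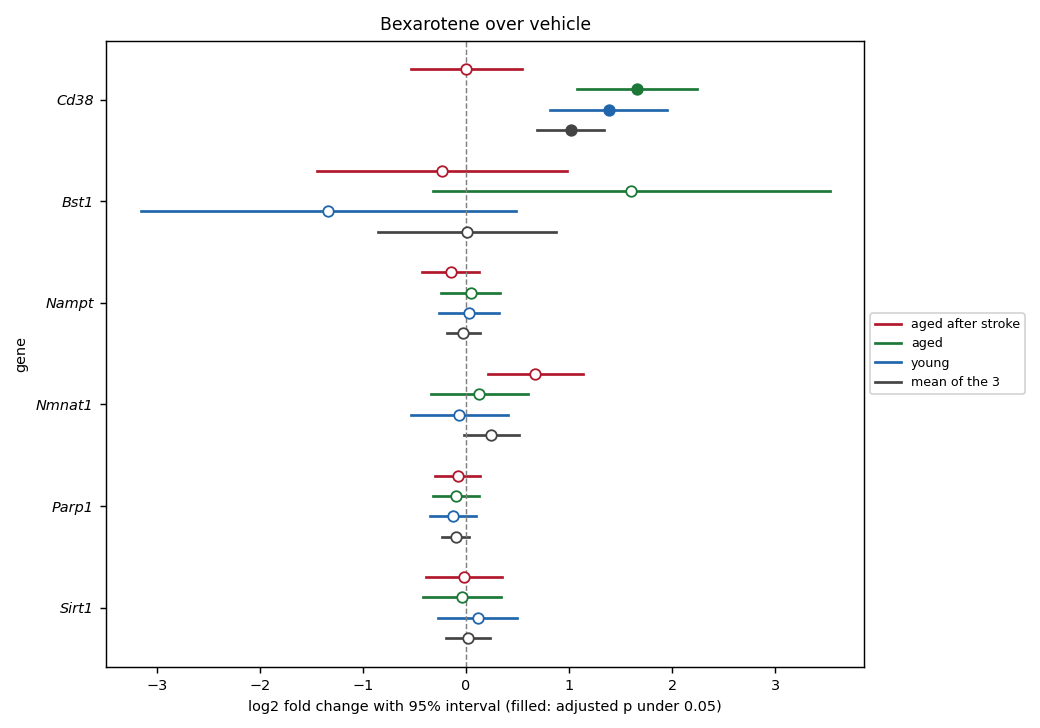
Log2 fold change of bexarotene over vehicle (horizontal axis) for each gene (vertical axis) in aged mice after stroke, aged mice, young mice and as the mean of the 3; lines are 95% intervals and filled points are called at an adjusted p under 0.05. Filled points occur for Cd38 only, at 1.66 in aged mice, 1.38 in young mice and 1.02 for the mean, and the intervals of Bst1 without a stroke are the widest.

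The calls for Cd38 within a setting rested on few libraries. In young mice the call was lost without any 1 of 5 of the 6 libraries, young bexarotene replicate 2 being the exception, and all 6 such fits gave differences of 1.21 to 1.52. In aged mice it was lost without aged bexarotene replicate 3 (1.69), aged vehicle replicate 1 (1.46) or aged vehicle replicate 3 (1.67), and all 6 such fits gave 1.46 to 1.86. The mean over the 3 settings stayed called without any 1 of the 18 libraries, at 0.88 to 1.09.

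Marker genes of other cells differed between the same groups. In aged mice the neutrophil genes summed to 605 to 1487 CPM with bexarotene and 202 to 411 CPM with vehicle, and all 12 had a higher fitted level with bexarotene, none of them called. The 10 monocyte genes summed to 358 to 458 CPM with bexarotene and 293 to 300.4 CPM with vehicle. With the mean level of the neutrophil genes in the fit, the Cd38 difference in aged mice was 1.32 (adjusted p = 0.109 by edgeR), and with the monocyte genes it was 1.66 (adjusted p = 0.0716 by edgeR). In these aged mice neither sum overlapped between treatments, so neither fit can fully separate the markers from the drug. Calls over all genes fell from 40 to 8 with the neutrophil genes and to 13 with the monocyte genes. In young mice Cd38 stayed called, at 1.48 (adjusted p = 0.00484 by edgeR) with the neutrophil genes and 1.38 (adjusted p = 0.0474 by edgeR) with the monocyte genes. The summed level of the 8 astrocyte genes was higher under bexarotene in both ages, at 491 to 729 CPM with bexarotene and 335 to 482 CPM with vehicle in aged mice, and at 578 to 905 CPM with bexarotene and 304 to 421 CPM with vehicle in young mice. The fitted level of 6 of the 8 was nevertheless lower under bexarotene in each age, with a median of -0.28 in aged mice and -0.47 in young mice (log2), none called. Over the mean of the 3 settings 1 of these 8, Slc1a3, was called, and it was higher under bexarotene. With the astrocyte genes in the fit, the Cd38 difference was 1.65 in aged mice (adjusted p = 0.0406 by edgeR) and 1.38 in young mice (adjusted p = 0.0480 by edgeR). The 8 genes of border macrophages overlapped between treatments without a stroke, at 391 to 485 CPM with bexarotene and 371 to 466 CPM with vehicle in aged mice, and at 724 to 978 CPM with bexarotene and 602 to 807 CPM with vehicle in young mice. With these in the fit, the Cd38 difference was 1.49 in aged mice (adjusted p = 0.0285 by edgeR) and 1.12 in young mice (adjusted p = 0.121 by edgeR). None of these lists had a gene at 0 in every library of a group.

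Stroke raised Cd38 in vehicle mice. The values above, 114 to 145 CPM in aged stroke vehicle mice and 18.7 to 33.1 CPM in aged vehicle mice, differed by 2.30 ± 0.28 (log2, 1.71 to 2.88, adjusted p = 4.78e-06 by edgeR). Under bexarotene, where the mice without a stroke already stood at 72.5 to 95.7 CPM, the difference was 0.64 ± 0.26 (0.09 to 1.19, adjusted p = 0.0511 by edgeR) and the groups overlapped. That value passed with DESeq2 (0.62, adjusted p = 0.0260) and with limma voom (0.58, adjusted p = 0.0492).

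The Cd38 difference with age did not pass the test over all genes. Aged vehicle mice, at 18.7 to 33.1 CPM, lay below young vehicle mice, at 35.0 to 56.5 CPM, by 0.85 on the log2 scale (-0.85 ± 0.27, -1.43 to -0.27, adjusted p = 0.153 by edgeR). Under bexarotene the aged mice, at 72.5 to 95.7 CPM, also lay below the young, at 98.3 to 141 CPM (-0.58 ± 0.26, -1.13 to -0.03, adjusted p = 0.40 by edgeR). Neither pair of groups overlapped, against 18.4% of all genes without overlap between vehicle groups and 16.8% between bexarotene groups. With DESeq2 the vehicle difference was -0.84 (adjusted p = 0.0311), and in the authors' deposited table it was -0.54 (adjusted p = 0.0107). Border macrophage genes moved with age, at 371 to 466 CPM in aged vehicle mice and 602 to 807 CPM in young vehicle mice. With them in the fit the Cd38 age difference was 0.26 under bexarotene (adjusted p = 0.986 by edgeR) and -0.10 with vehicle (adjusted p = 0.99 by edgeR). Under bexarotene their sums did not overlap between ages either, at 391 to 485 and 724 to 978 CPM. These markers and age therefore cannot be told apart in that fit. It called 14 of all genes for age with bexarotene and 36 with vehicle, against 149 and 264 without the covariate.

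Ordered by mean, Cd38 stood at 128 ± 53.2 CPM in aged stroke bexarotene mice, 128 ± 15.8 in aged stroke vehicle mice, 123 ± 22.2 in young bexarotene mice, 82.4 ± 12 in aged bexarotene mice, 47.3 ± 11.1 in young vehicle mice and 26.1 ± 7.17 in aged vehicle mice (SD, n = 3 each). The first 3 overlapped with each other. The next group, aged bexarotene, lay below all young bexarotene libraries, young vehicle below all aged bexarotene libraries, and aged vehicle below all young vehicle libraries, the first and last of these steps being the age differences that did not pass the test. In the authors' deposited tables Cd38 was listed for bexarotene in aged mice (log2 1.60, adjusted p = 4.55e-15), for bexarotene in young mice (log2 1.29, adjusted p = 1.48e-10) and for age, and not for bexarotene after stroke. The other 5 genes were in none of the 4 tables.

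The genes most like Cd38 over the 18 libraries, among 10852 genes with a mean of at least 5 CPM, were Cpt1a (Pearson r = 0.889 of log2 CPM), Lbr (0.867), Gpx3 (0.860), Nsl1 (0.859) and Elmo2 (0.858). Over the 12 libraries without a stroke they were Parvg (0.953), Ltc4s (0.950), Slco2b1 (0.948), Nipa2 (0.945) and Cyfip1 (0.944). Libraries of a group share their treatment, so these values describe a likeness of pattern.

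Bst1, the neighbour of Cd38 on chromosome 5 with no protein-coding gene between them, was low without a stroke. It had 14.7, 20.1 and 30.3 CPM in aged stroke bexarotene mice, against 1.75, 0.595 and 3.85 CPM in aged bexarotene mice. With vehicle it had 19.3, 31.6 and 25.8 CPM in aged stroke mice, against 0.906, 0.391 and 0.672 CPM in aged mice. Stroke and no stroke did not overlap under either treatment, as for 56.3% of all genes with bexarotene and 56.1% with vehicle. The rise was 3.42 ± 0.69 with bexarotene (log2, 1.95 to 4.88, adjusted p = 7.64e-04 by edgeR) and 5.25 ± 0.79 with vehicle (3.56 to 6.95, adjusted p = 6.16e-05 by edgeR), from counts of 305 to 654 with a stroke and 4 to 38 without in the aged mice. Leaving out 1 library gave 2.94 to 4.24 with bexarotene, the highest without aged bexarotene replicate 3, and 4.97 to 5.53 with vehicle, all called.

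Without a stroke Bst1 varied more between libraries of a group than between groups. Young bexarotene mice had 0.308, 0.358 and 2.00 CPM, against 0.668, 0.809 and 5.24 CPM in young vehicle mice, where the third library held 60 counts and the others 7 and 6. The third library was the highest of its group in both, and likewise among aged bexarotene mice. No bexarotene or age difference of Bst1 was called, and the intervals were wide, from -0.32 to 3.53 for bexarotene in aged mice, from -3.16 to 0.48 for bexarotene in young mice and from -3.71 to 0.07 for age with vehicle (log2). After stroke the bexarotene difference was -0.24 ± 0.57 (-1.45 to 0.98). With the neutrophil genes in the fit the bexarotene difference in aged mice was 0.43, and the stroke difference with vehicle was 4.72 (adjusted p = 9.92e-06 by edgeR).

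Markers of blood cells moved with Bst1, and those of monocytes also with Nampt. Bst1 followed the neutrophil genes, with Pearson r = 0.849 over the 12 libraries without a stroke and 0.917 over the 6 with one. With the monocyte genes r was 0.931 over all 18, 0.693 over the 12 without a stroke and 0.098 over the 6 with one. Gda was among the genes most like Bst1 over all 18 libraries (r = 0.979). Nampt followed the monocyte genes at r = 0.960 over all 18 libraries and 0.891 over the 6 with a stroke. Over the 12 without a stroke this r was -0.277. With the microglial genes the r of Nampt was -0.966 over all 18, -0.904 over the 6 and -0.273 over the 12. Cd38 followed the neutrophil genes at r = 0.353 over the 12 libraries without a stroke and 0.936 over the 6 with one. Over the 12 without a stroke its r was 0.813 with the summed astrocyte genes and 0.656 with the monocyte genes. Over these 12 it was negative with genes of B and plasma cells (-0.636), endothelial cells (-0.582) and dendritic cells (-0.571). Points that share a group share its cell makeup, so these are descriptions. Bst1 shares 98 exonic bases with Fbxl5 on the opposite strand, which ran from 102 to 214 CPM across the libraries and 34477 counts in all, against 2970 for Bst1, and the handling of strand in the authors' counting is not stated in the labels or headers.

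**Figure D3:**
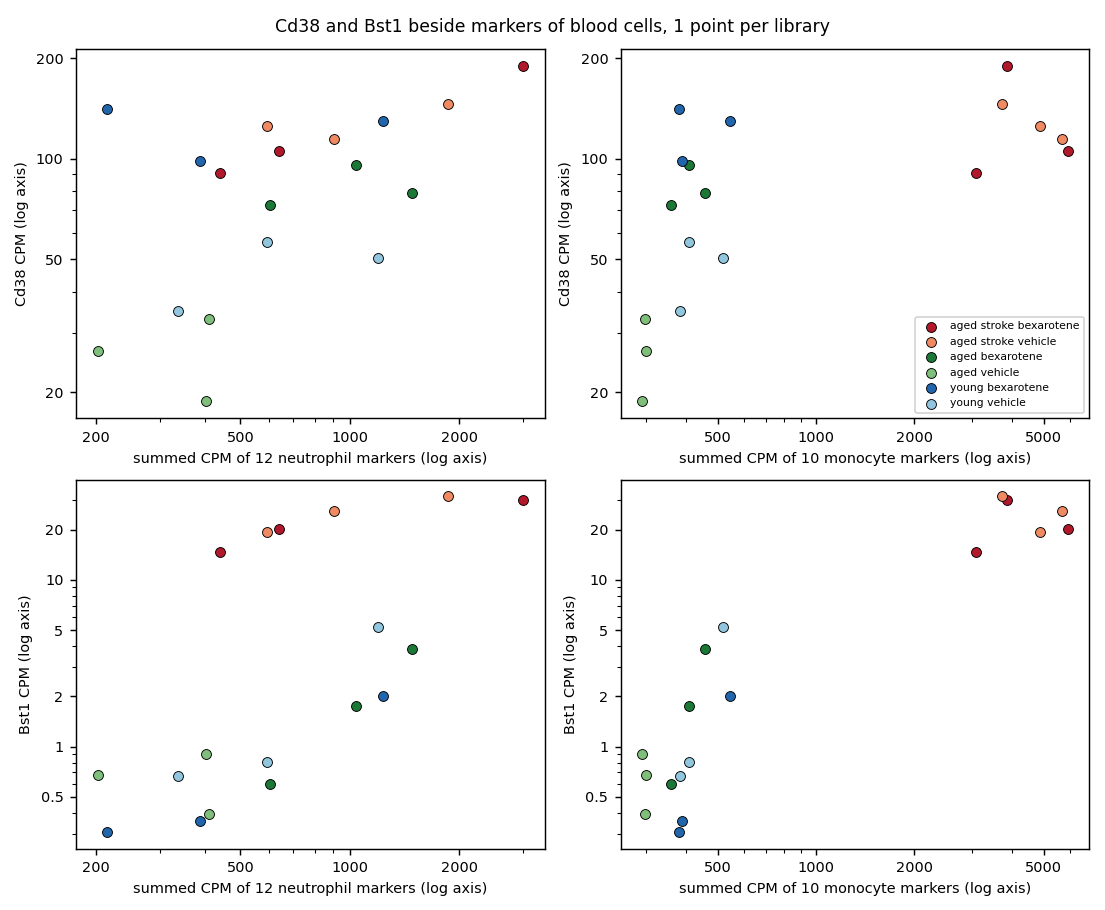
Cd38 and Bst1 in CPM (vertical log axes) beside the summed CPM of 12 neutrophil genes and of 10 monocyte genes (horizontal log axes), 1 point per library, coloured by group. Bst1 lies between 14.7 and 31.6 CPM in the 6 stroke libraries, whose monocyte genes sum to 3094 to 5934 CPM, and at most 5.24 CPM in the others; Cd38 of the aged vehicle mice is lowest in every panel that shows it.

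Stroke and no stroke did not overlap for Nampt under either treatment, as for 56.3% of all genes with bexarotene and 56.1% with vehicle. It had 142, 209 and 160 CPM in aged stroke bexarotene mice, against 70.1, 73.7 and 74.3 CPM in aged bexarotene mice. With vehicle it had 210.3, 168 and 186 CPM in aged stroke mice, against 58.8, 78.7 and 74.1 CPM in aged mice. The rise was 1.22 ± 0.14 with bexarotene (log2, 0.94 to 1.51, adjusted p = 8.05e-07 by edgeR) and 1.42 ± 0.14 with vehicle (1.13 to 1.71, adjusted p = 1.79e-07 by edgeR). Young mice stood near the aged ones, at 56.7, 67.7 and 59.0 CPM with bexarotene and 55.2, 60.3 and 64.0 CPM with vehicle. The intervals allow only small bexarotene differences, from -0.43 to 0.13 after stroke, -0.24 to 0.33 in aged mice and -0.26 to 0.32 in young mice (log2). Age differences were 0.25 ± 0.14 with bexarotene, where the groups did not overlap (as for 16.8% of all genes), and 0.24 ± 0.14 with vehicle, neither called. Over the 18 libraries the 2 genes most like Nampt were Arpc5 (r = 0.992) and Actr2 (0.991).

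Nmnat1, which completes NAD in the nucleus, was lower in stroke vehicle mice. It had 6.78, 5.79 and 7.20 CPM in aged stroke vehicle mice, against 12.5, 7.04 and 12 CPM in aged vehicle mice, with an overlap at the second aged library. The fall was -0.67 ± 0.22 (log2, -1.14 to -0.20, adjusted p = 0.0183 by edgeR), and the call was lost without aged vehicle replicate 1 (adjusted p = 0.0750), aged vehicle replicate 3 (0.0634) or aged stroke vehicle replicate 2 (0.0555). It was also lost by edgeR with only the 2 groups compared in the fit (adjusted p = 0.0551), with counts thinned to the shallowest library (0.0606), without the libraries numbered 1 (0.13), and with border macrophage genes (-0.34, adjusted p = 0.448) or monocyte genes (-1.50, adjusted p = 0.697) in the fit. With bexarotene it had 11.8, 10.9 and 8.81 CPM in aged stroke mice, against 11.1, 10.2 and 13.3 CPM in aged mice, a difference of -0.13 ± 0.22 (adjusted p = 0.644 by edgeR).

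The same libraries set the treatments apart after stroke, where all 3 bexarotene libraries of Nmnat1 lay above all 3 vehicle libraries. The difference was 0.67 ± 0.22 (log2, 0.21 to 1.13, unadjusted p = 0.00655), and over all genes it did not pass (adjusted p = 0.467 by edgeR). Groups did not overlap for 11.3% of all genes in that comparison. Without a stroke Nmnat1 differed by 0.13 ± 0.22 in aged mice and by -0.07 ± 0.22 in young mice, and the change of the drug's effect with stroke was 0.54 ± 0.31 (-0.11 to 1.20, adjusted p = 1 by edgeR). Young mice had 9.96, 10.3 and 13.7 CPM with bexarotene and 13.3, 9.44 and 12.7 CPM with vehicle. Choroid plexus genes, 8 in all, also differed between the stroke groups, at 97.7 to 521 CPM with bexarotene and 648 to 2183 CPM with vehicle, and with them in the fit the Nmnat1 difference was 0.82 (adjusted p = 0.298 by edgeR). The 8 border macrophage genes also lay apart, at 370.1 to 404 CPM with bexarotene and 413 to 582 CPM with vehicle, and with them in the fit it was 0.48 (adjusted p = 1 by edgeR).

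Parp1 differed little between groups, and edgeR called no difference over all libraries and genes tested. It had 117, 123 and 114 CPM in aged stroke bexarotene mice, against 111, 97.7 and 87.6 CPM in aged bexarotene mice, and 129.7, 124 and 120.0 CPM in aged stroke vehicle mice, against 112, 103 and 102 CPM in aged vehicle mice. Neither pair overlapped, against 56.3% of all genes without overlap under bexarotene and 56.1% under vehicle. The differences were 0.25 ± 0.10 with bexarotene (log2, 0.03 to 0.47, adjusted p = 0.0531 by edgeR) and 0.24 ± 0.10 with vehicle (0.02 to 0.46, adjusted p = 0.0674 by edgeR). The difference with bexarotene passed with limma voom (0.26, adjusted p = 0.0429), and by edgeR with a filter of at least 5 CPM in 3 libraries (adjusted p = 0.0380), with the neutrophil genes in the fit (0.28, adjusted p = 0.0390) and without aged bexarotene replicate 1 (0.35, adjusted p = 0.0203). Young mice had 80.5, 83.6 and 102 CPM with bexarotene and 87.9, 96.8 and 106 CPM with vehicle. Its bexarotene differences were -0.08 ± 0.10 after stroke, -0.09 ± 0.11 in aged mice and -0.13 ± 0.11 in young mice.

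Sirt1 had no called difference in any comparison by edgeR. Its 18 libraries ranged from 19.3 to 30.9 CPM, and group means from 22.8 ± 0.0842 CPM in aged bexarotene mice to 26.3 ± 3.62 CPM in young bexarotene mice (SD, n = 3 each). Both extremes came from mice with a stroke, 30.9 CPM with bexarotene and 19.3 CPM with vehicle. The 7 differences between single groups lay between -0.20 and 0.11 on the log2 scale with SE of 0.17 to 0.18. The 95% intervals for bexarotene ran from -0.38 to 0.35 after stroke, -0.42 to 0.34 in aged mice and -0.27 to 0.49 in young mice.

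**Figure D4:**
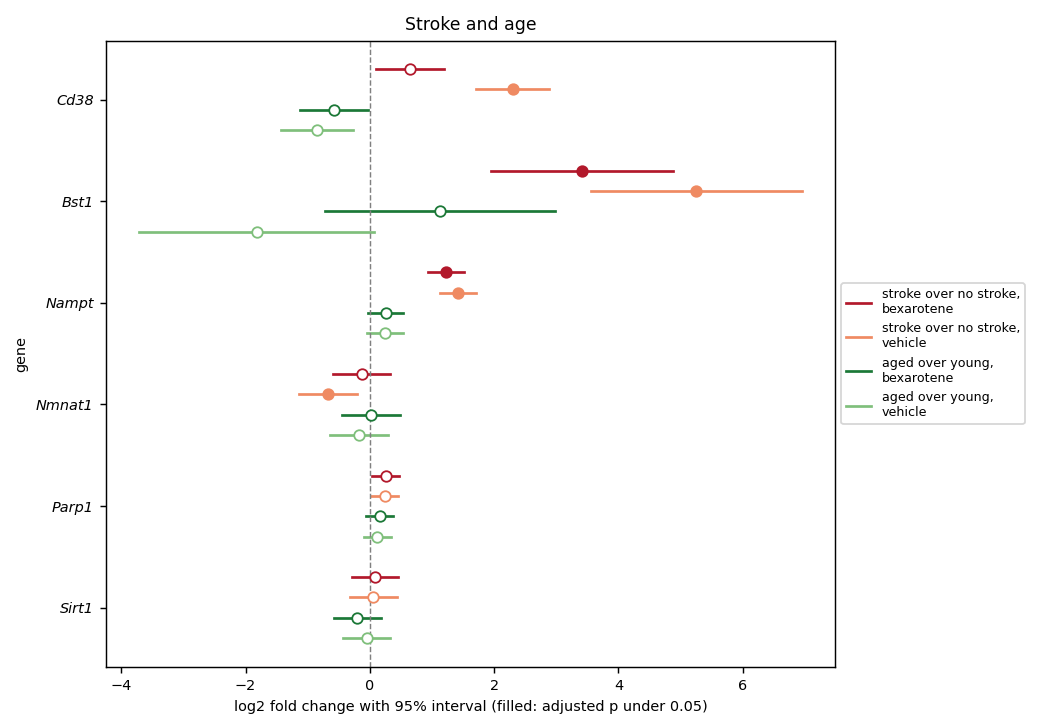
Log2 fold change (horizontal axis) for each gene (vertical axis) of stroke over no stroke in aged mice and of aged over young mice, each with bexarotene and with vehicle; lines are 95% intervals and filled points are called at an adjusted p under 0.05. Stroke points of Bst1 (3.42 and 5.25) and Nampt (1.22 and 1.42) are filled under both treatments, those of Cd38 (2.30) and Nmnat1 (-0.67) with vehicle only, and no age point is filled.

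Counted together, stroke changed 2 of the 6 genes with bexarotene, both higher, where 48% of all genes were called, 26.8% higher. With vehicle it changed 4 of 6, 3 higher and 1 lower, where 48.3% of all genes were called, 27.2% higher and 21.1% lower. For age, 0 of 6 were called by edgeR, with Cd38 at an unadjusted p under 0.05, against 0.96% of all genes with bexarotene and 1.7% with vehicle. DESeq2 called 0 with bexarotene and 1 with vehicle, and limma voom called 0 in each.

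Per kilobase of exon (GENCODE M21 lengths), the rank of the genes differed between groups. In aged stroke vehicle mice the mean level was 37.3 CPM per kb for Nampt, 33.0 for Cd38, 23.5 for Parp1, 7.71 for Bst1, 4.57 for Sirt1 and 2.17 for Nmnat1. Aged vehicle mice had 19.9 CPM per kb for Parp1, 13.95 for Nampt, 6.72 for Cd38, 4.41 for Sirt1, 3.46 for Nmnat1 and 0.198 for Bst1. Parp1 thus led without a stroke and Nampt and Cd38 with one, and under bexarotene Cd38 led in aged mice (21.2 CPM per kb, Parp1 18.7) and young mice (31.6, Parp1 16.7). Bst1 and Nampt correlated across the 18 libraries (r = 0.88 of log2 CPM) and not across the 12 without a stroke (r = 0.04).

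Of 51 other NAD genes, 42 passed the filter. Bexarotene changed 0 of these 42 by edgeR and by limma voom in aged mice after stroke, in aged mice and in young mice, with 4, 1 and 1 at an unadjusted p under 0.05, and DESeq2 also called 0 in each. Of all 15528 genes, 988, 1012 and 1300 had an unadjusted p under 0.05 by edgeR in these settings. Called by edgeR were 0.058%, 0.258% and 0.509% of all genes. Over the mean of the 3 settings edgeR called 0, with 6 at an unadjusted p under 0.05, limma voom called 0 and DESeq2 called 1, the ADP-ribosyltransferase Parp14. Of all genes, 1966 had an unadjusted p under 0.05 for that mean and 2.09% were called, both by edgeR. Age changed 0 of the 42 by edgeR and limma voom, with 4 at an unadjusted p under 0.05 under either treatment, and with vehicle DESeq2 called 1, the cytosolic deacetylase Sirt2, whose edgeR difference was 0.34 ± 0.10 (adjusted p = 0.0973). Of all genes, 1769 had an unadjusted p under 0.05 for age with bexarotene and 2034 with vehicle. Called by edgeR were 0.96% and 1.7% of all genes.

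Stroke moved other NAD genes in both directions at about the rate of all genes. With bexarotene 10 were higher and 9 lower of 42, and the median was -0.13, against 0.00 over all genes (log2). With vehicle 13 were higher and 8 lower, and the median was 0.04, against 0.02 over all genes. In the route from tryptophan, with 6 genes tested, stroke changed 2 with bexarotene and 4 with vehicle, where 48% and 48.3% of all genes were called. Kmo, which hydroxylates kynurenine, rose by 3.31 ± 0.52 to 18.2, 6.34 and 10.4 CPM in aged stroke vehicle mice, against 1.54, 1.17 and 0.773 CPM in aged vehicle mice. Qprt, which feeds the end product of that route into NAD, fell by 1.48 on the log2 scale (-1.48 ± 0.32) to a mean of 2.07 CPM in stroke mice, against 5.78 CPM without. In that list Kynu (1.90) and Haao (0.81) were also called higher with vehicle, while with bexarotene Kmo (2.83) and Qprt (-1.76) were the 2 called.

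Among 14 ADP-ribosyltransferases, 5 rose with stroke under both treatments, where 26.8% of all genes were called higher with bexarotene and 27.2% with vehicle. In either direction 8 of the 14 were called with bexarotene and 7 with vehicle, a share near that of all genes, 48% with bexarotene and 48.3% with vehicle. Parp14 changed most of these 5, with 76.0, 104 and 80.6 CPM in aged stroke bexarotene mice, against 28.5, 17.8 and 23.1 CPM in aged bexarotene mice, and 129, 120.3 and 120.5 CPM in aged stroke vehicle mice, against 32.4, 27.9 and 32.4 CPM in aged vehicle mice. Its changes were 1.91 ± 0.20 with bexarotene and 2.00 ± 0.20 with vehicle on the log2 scale. Parp9 (1.05 with bexarotene, 1.14 with vehicle), Parp10 (1.06, 1.26), Parp12 (1.18, 1.33) and Tiparp (0.58, 0.71) were the others, and several of this group are known as interferon-stimulated genes. Parp8 (-0.45, -0.55) and Parp16 (-1.12, -1.29) fell under both, and Parp6 (-0.73) with bexarotene. Of the 6 other sirtuins, the mitochondrial Sirt5 fell under both treatments (-0.85 with bexarotene, -0.83 with vehicle) and Sirt7 with bexarotene (-0.30). Of 4 genes that remove ADP-ribose, Adprs fell under both (-0.42, -0.37) and Macrod1 with vehicle (-0.67).

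Salvage and phosphorylation genes changed little in size. Of 7 tested, 2 were called with bexarotene and 3 with vehicle, against 48% and 48.3% of all genes. Nadk, the cytosolic NAD kinase, rose by 0.39 with bexarotene and 0.49 with vehicle, its mitochondrial counterpart Nadk2 fell (-0.59, -0.78), and Pnp rose with vehicle (0.40). Extracellular and other NAD genes included larger changes. Enpp1, a membrane enzyme that hydrolyses nucleotides, stood at 70.5, 75.5 and 62.9 CPM in aged stroke bexarotene mice, against 17.2, 12.1 and 15.2 CPM in aged bexarotene mice, and its rise was 2.24 ± 0.16 with bexarotene and 2.25 ± 0.16 with vehicle. Nt5e, the ectonucleotidase CD73, rose by 3.25 ± 0.77 to a mean of 8.56 CPM with bexarotene, against 0.918 CPM without a stroke, and by 3.13 ± 0.73 to 12.9 CPM with vehicle, against 1.45 CPM. Slc25a51, which carries NAD into mitochondria, rose by 1.12 and 0.60, and Nudt12, which degrades NAD in peroxisomes, fell (-1.36, -1.54).

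**Figure D5:**
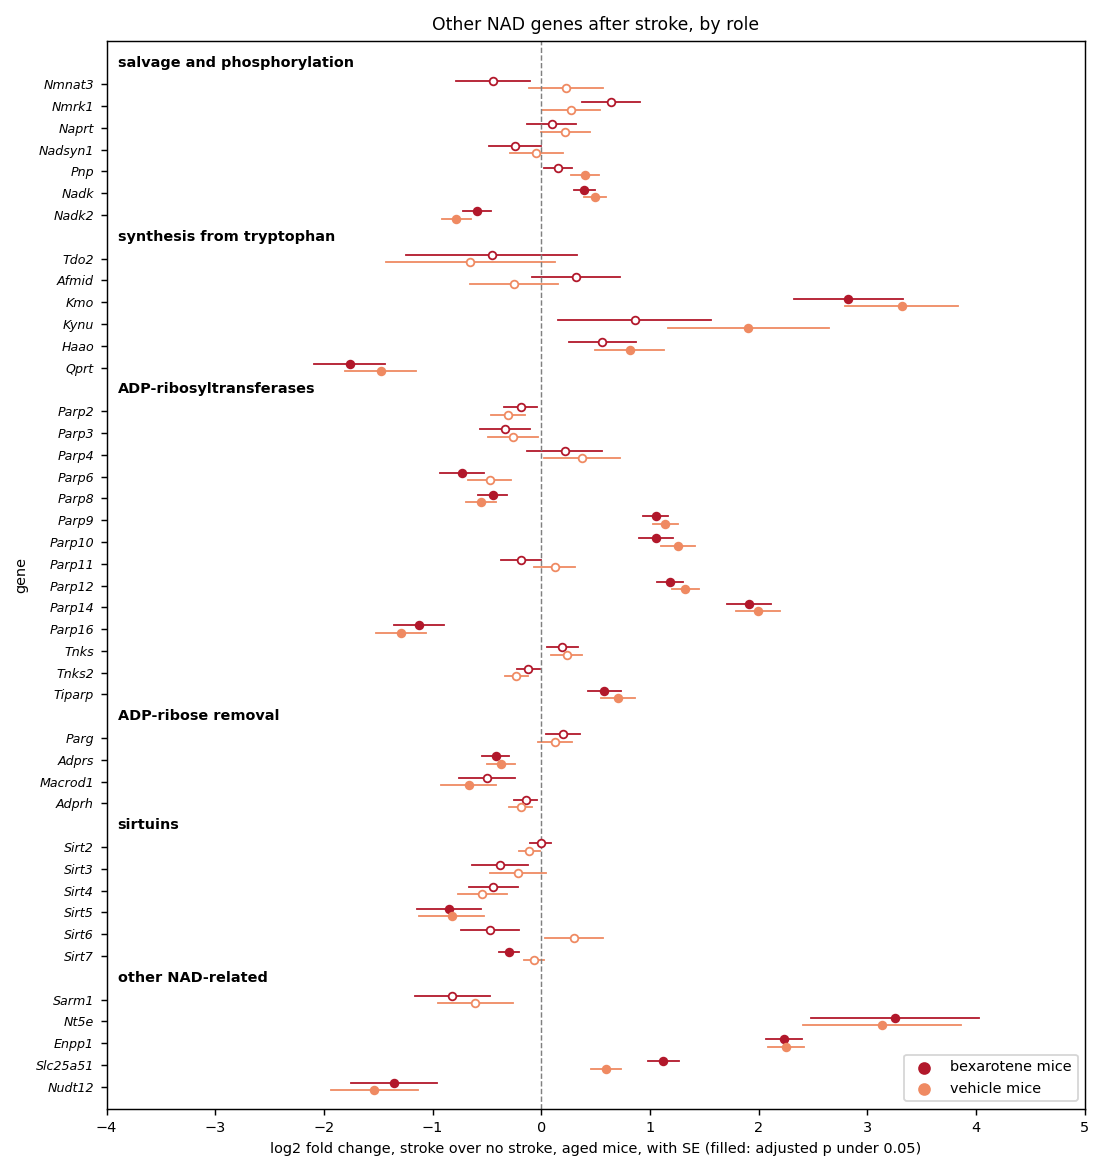
Log2 fold change of stroke over no stroke in aged mice (horizontal axis) for the 42 other NAD genes tested (vertical axis, grouped by role), with bexarotene and with vehicle; lines are the SE and filled points are called at an adjusted p under 0.05. Kmo, Nt5e and Enpp1 lie above 2 under both treatments, and Parp16, Qprt and Nudt12 lie below -1.

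The cell makeup changed with stroke beside all of these values. Monocyte genes, 10 of 10 above the filter, summed to 3094 to 5934 CPM with bexarotene and 3717 to 5693 CPM with vehicle in stroke mice, against 358 to 458 CPM with bexarotene and 293 to 300.4 CPM with vehicle in aged mice without a stroke. The 11 microglial genes summed to less, at 21954 to 27745 CPM in stroke mice, against 47302 to 54514 CPM in aged mice without a stroke, both over bexarotene and vehicle, and 9 of the 11 were called lower under each treatment. Early response genes that cell handling can induce, 8 in all, summed to 4431 to 8587 CPM in stroke mice, against 1704 to 3568 CPM in aged mice without a stroke. Since the monocyte sums of stroke and no stroke do not overlap, monocyte content and stroke cannot be told apart in these libraries. With the monocyte genes in the fit, the stroke differences were 2.34 for Cd38, 0.56 for Nampt and -0.69 for Bst1 with vehicle, none called, and 2 of all 15528 genes were called.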

How the data were processed

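The authors deposited whole-number counts per gene for the 18 libraries under Ensembl identifiers, and all sample columns were used. The submitters' processing notes list R 4.4.2, GATK, STAR 2.7.10a and Trimmomatic 0.40 with build GRCm39, without saying what each did; annotation and strand setting are not stated there. The authors also deposited 4 tables of comparisons, limited to genes with an adjusted p under 0.05, with log2 fold changes, p-values and, per the file headers, a baseMean, taken as the mean signal in normalized counts. Symbols came from GENCODE M21 (GRCm38), which named 52029 of 57010 genes.

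Counts were tested with edgeR 4.0.16 (R 4.3.3) in 1 quasi-likelihood model of the 6 groups, after filterByExpr and TMM scaling (factors 0.937 to 1.05), with 12 residual degrees of freedom. SE of a fold change follow from its F statistic. DESeq2 1.42.0 and limma voom (limma 3.58.1) were alternatives. Fits with a covariate used the mean log2(CPM + 1) of a marker list; those for border macrophages, astrocytes and monocytes were chosen after seeing the data. The scripts were tested on simulated data. Floors of 3 counts cover counting error only. The 6 genes, the lists and the rule for named genes (these 6, other NAD genes called in a comparison, and the genes with the highest r) were chosen with earlier results of these data known. Replicate numbers deviated together in the young bexarotene comparison (correlations 0.276, 0.198 and 0.190), so its blocked fit counts as paired; no call of the 6 genes changed. 1 gene that this rule names is not reported here.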

Additional observations from a re-analysis of the deposited data

How the results depend on the processing

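Of 1398 values of single genes under 33 alternatives, 1233 kept their sign and side of the threshold, 117 had the other sign with neither value called, 24 lost the threshold, 22 gained it and 2 reversed a called value; the cause of each change was not tested unless named. The mean bexarotene difference of Cd38 stayed called under every alternative. In young mice the Cd38 difference lost its call without the libraries numbered 1 (1.10) and with border macrophage genes as a covariate (1.12), and leaving out 1 library gave 1.21 to 1.52. In aged mice it lost its call without the libraries numbered 1 (1.33) and with the neutrophil (1.32) or monocyte (1.66) covariate, and leaving out 1 library gave 1.46 to 1.86. The 6 genes then had 0 called, 0 to 1 when 1 library was left out, and 2 with no filter on low counts, in either age. After stroke, leaving out 1 library moved Cd38 from -0.39 to 0.20. For age the Cd38 difference passed with DESeq2 (-0.84, 1 of the 6 genes called) and with no filter (-0.82, 2 called), and under bexarotene with no filter (-0.54, 1 called). The border macrophage covariate, whose summed values do not overlap between ages, gave 0.26 under bexarotene. For stroke under bexarotene the Cd38 difference passed with DESeq2 (0.62), limma voom (0.58), no filter (0.64), a filter of at least 5 CPM in 3 libraries (0.65), the neutrophil covariate (0.71) and without the libraries numbered 1 (0.94), and leaving out 1 library gave 0.25 to 0.84. There limma voom, the filter of at least 5 CPM and the neutrophil covariate each called 4 of the 6. Over all genes limma voom called 7540, that filter 6673 of the fewer genes it kept, and the neutrophil covariate 7047. The main fit called 7450. With the monocyte covariate, whose values do not overlap between stroke and no stroke, stroke under bexarotene gave -1.20 for Bst1, and with vehicle 2.34 for Cd38 and -0.69 for Bst1, with 0 of the 6, 0 other NAD genes and, over all genes, 2 called with vehicle and 83 with bexarotene. The border macrophage covariate left 13 other NAD genes called for stroke. Other NAD genes called became 1 for bexarotene after stroke with no filter, 1 for the mean bexarotene difference with DESeq2 and with no filter (0 to 1 when 1 library was left out), and 1 for age with DESeq2. The drug's effect on Cd38 in aged minus young mice was -0.16 with the neutrophil covariate, and no filter called 1 of the 6; in aged mice with minus without a stroke it passed with DESeq2 (-1.65, 1 called) and no filter (-1.64, 2 called). Calls over all genes depended on the tool, with 59 by DESeq2, 28 by limma voom and 9 by edgeR for bexarotene after stroke, 91, 18 and 40 in aged mice, 209, 54 and 79 in young mice, 516, 273 and 325 for their mean, 347, 80 and 149 for age under bexarotene and 522, 154 and 264 with vehicle. Leaving out 1 library gave 1 to 17 calls for bexarotene after stroke, 9 to 36 in aged and 31 to 72 in young mice. With no filter on low counts edgeR called far more genes, 419 for bexarotene after stroke, 339 in aged and 457 in young mice. It then called 683 for age under bexarotene, 677 with vehicle, and 256 for the change of the drug's effect with stroke, where the main fit called 0. Passes with no filter stand beside these counts. With the replicate block, Cd38 differed by 1.68 in aged and 1.40 in young mice, it changed no call of the 6 genes, and bexarotene after stroke had 20 calls over all genes. Outside the young bexarotene comparison the correlations by replicate number varied in size and sign and were not treated as pairing. For bexarotene in aged mice they were 0.226, 0.128 and 0.008. For stroke they were 0.208, 0.053 and 0.035 with vehicle, and 0.120, 0.040 and 0.025 with bexarotene. Both signs occurred for bexarotene after stroke and for age with vehicle. Over these comparisons the correlations ran from -0.145 (replicate 3, bexarotene after stroke) to 0.335 (replicate 1, age with vehicle). For age under bexarotene they were 0.085, 0.119 and 0.148. Choroid plexus genes summed highest in replicate 1 and lowest in replicate 2 in each group without a stroke, at 1658, 121 and 430 CPM in aged vehicle mice. With a stroke the vehicle mice had the same order, and the bexarotene mice were highest in replicate 3. What libraries with the same replicate number share was not tested. Depth limits Bst1 without a stroke, where counts fell to 3.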
